A study of Mus musculus with 8 samples.

Results

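The genes described here act when spermatogonia differentiate and when germ cells pass through meiotic prophase. A fixed list of 32 gene symbols was looked up in the deposited table regardless of letter case, and 30 were found among 24499 genes. The transcript with the highest average of the group means stood for each gene, and low genes were kept. The list held 5 regulators of differentiation, 6 genes of the synaptonemal complex, 4 of meiotic cohesin, 16 of recombination, and Mns1. The RNA came from 4 mouse testis samples labelled Dio3KO and 4 wild-type (WT) samples, all at postnatal day 5 and on the 129/SVJ background. The Dio3 enzyme, a deiodinase, breaks down active thyroid hormone. How the allele was made, and whether each sample was from 1 animal, is not stated in the labels. Both groups were deposited only as a mean in RPKM (reads scaled by transcript length and by the reads of the library) with a coefficient of variation (CV, the SD divided by the mean), so levels below are the authors' means and no value of a single sample can be shown. The number of reads behind each value is unknown.

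In the mouse testis, retinoic acid drives undifferentiated spermatogonia to differentiate and later induces the factors that commit germ cells to meiosis. In meiotic prophase the chromosomes are held by cohesin, cut and repaired by recombination, and joined in pairs by the synaptonemal complex. Neonatal testes hold gonocytes and spermatogonia, and meiotic prophase begins some days later.

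Dio3 was higher in the group labelled Dio3KO, at 2.95 RPKM (CV 0.29) against 0.52 RPKM (CV 0.20) in WT testes, and the altered part of the gene is not given in the labels, so its level does not check them. The extraction text in the labels names hypothalami, but 15 genes of hypothalamus and neurons reached at most 0.93 RPKM in Dio3KO and 1.49 RPKM in WT samples, while the germ cell RNA-binding gene Dazl stood at 89.7 RPKM in both. Of 14 genes of haploid spermatids, 3 averaged at least 1 RPKM. By the threshold given below, 9 of 10 macrophage genes and 4 of 8 endothelial genes rose, with sums of 150 against 71.8 RPKM and 79.4 against 64.0 RPKM in Dio3KO and WT testes. All 20 genes of a cell cycle list fell, among them the kinesin gene Kif11 (23.7 and 42.3 RPKM in Dio3KO and WT testes), Tpx2 (19.7 and 30.8 RPKM), Top2a (71.4 and 118.9 RPKM) and Ube2c (30.1 and 66.3 RPKM), their sum being 737 RPKM in Dio3KO testes and 1199 RPKM in WT testes. Their part in the results below was not tested. In whole testes, fewer cells of a type and less RNA per cell cannot be told apart.

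Among the genes of differentiation and meiotic prophase, Psmc3ip, Mnd1, Trip13 and Syce2 were lower in Dio3KO than in WT testes, to between 0.650 and 0.770 of the WT means, and the others did not pass the threshold in either direction. In the authors' deposited table, at the threshold of 0.05 for its adjusted p, 0 of 30 were higher, 4 were lower (13.3%) and 26 did not pass. Over all genes of the table, 9.95% were higher and 11.0% were lower by the same threshold, and among genes averaging at least 1 RPKM the shares were 13.6% and 15.9%. The share that fell was therefore close to that of other genes. A moderated test with limma was computed from the means and CVs over genes averaging at least 1 RPKM, 28 members among them. After adjustment it called 2 members higher and 4 lower, against 18.1% and 23.1% of all these genes. At an unadjusted p below 0.05 it called 5 members higher and 5 lower, against 3348 and 4492 of all 15556 genes. The median log2 ratio of Dio3KO over WT, with 0.5 RPKM added to each mean, was -0.05 over the 30 members, as it was over all genes averaging at least 1 RPKM. Its sign is not fixed by the data, since it turned to 0.04 when both groups were scaled to the same sum of RPKM. Ratios ran from -0.60 to 0.47, with 14 above 0 and 16 below.

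**Figure D1:**
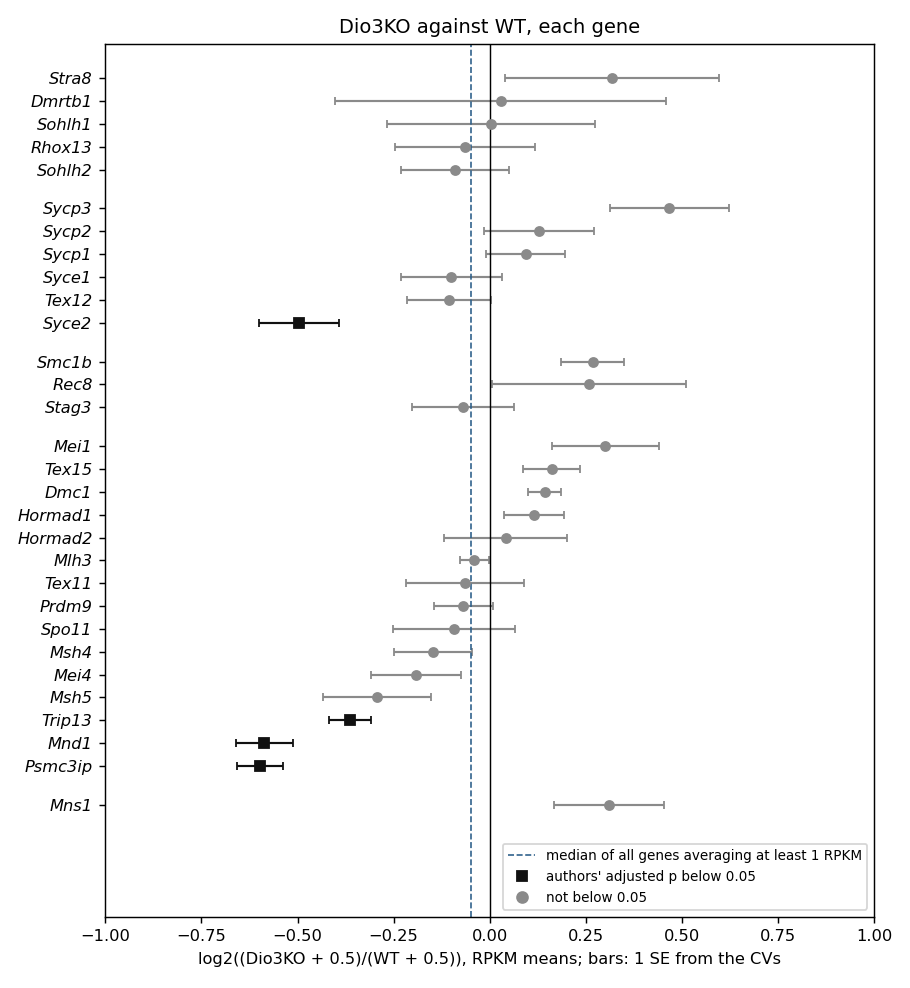
The log2 ratio of the Dio3KO mean over the WT mean (0.5 RPKM added to each, horizontal axis) is plotted for 30 genes, with bars of 1 SE computed from the CVs. Black squares passed the threshold of 0.05 in the authors' deposited table, and these 4 lie between -0.60 and -0.36, and the dashed line marks the median of all genes averaging at least 1 RPKM.

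A missed threshold does not show that a gene was unchanged, and the intervals say how much room was left. Of 24 members that did not pass and had a limma interval, 18 had a 95% interval of the log2 ratio that spanned 0, with bounds from -0.80 to 0.86. The other 6 were Sycp3, Smc1b, Mns1, Mei1 and Tex15 on the high side and Msh5 on the low side. Of these, Sycp3 and Smc1b passed limma after adjustment over all genes.

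The regulators of spermatogonial differentiation gave no gene past the threshold. Stra8, which retinoic acid induces and which germ cells need to enter meiosis, had a mean of 14.6 RPKM (CV 0.16) in Dio3KO testes and 11.6 RPKM (CV 0.37) in WT testes. The authors' deposited table gave p = 0.3609 after adjustment, and its log2 ratio of 0.32 had a limma 95% interval from -0.22 to 0.86. Sohlh1 and Sohlh2 encode partner transcription factors of the basic helix-loop-helix class that spermatogonia need to differentiate. Sohlh1 was at 18.8 RPKM in both groups, with a CV of 0.18 among Dio3KO and 0.34 among WT testes, and Sohlh2 was at 9.40 RPKM (CV 0.08) in Dio3KO and 10.04 RPKM (CV 0.19) in WT testes. The interval of Sohlh1 still ran from -0.52 to 0.52 in log2, while that of Sohlh2 was narrower, from -0.35 to 0.16. Rhox13, an X-linked homeobox gene of differentiating spermatogonia, had 2.59 RPKM (CV 0.19) in Dio3KO and 2.73 RPKM (CV 0.23) in WT testes. Dmrtb1, a doublesex-related factor that acts at the passage from spermatogonial divisions to meiosis, had 1.57 RPKM (CV 0.25) in Dio3KO and 1.53 RPKM (CV 0.75) in WT testes. The Dio3KO mean was 1.26 times the WT mean for Stra8 and from 0.936 to 1.03 times for the other 4 genes.

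**Figure D2:**
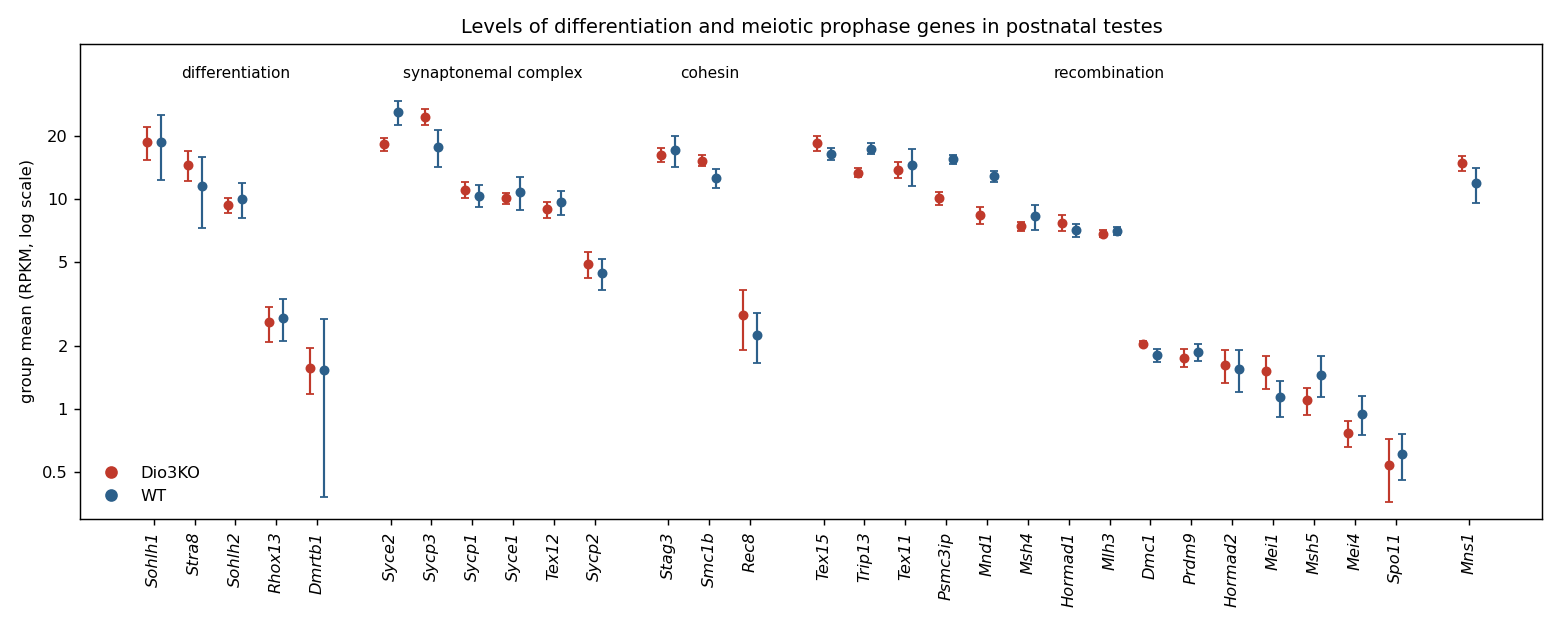
Group means in RPKM (log axis) are plotted for the 30 genes, Dio3KO in red left of WT in blue, with bars that span the mean plus and minus the authors' CV times the mean. Means run from about 0.5 RPKM for Spo11 to 24.7 RPKM for Sycp3 in Dio3KO and 25.96 RPKM for Syce2 in WT testes, and the WT bar of Dmrtb1 is the widest.

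Genes of the synaptonemal complex went different ways. Syce2, a protein of the central element where paired chromosomes meet, fell to 18.3 RPKM (CV 0.07) in Dio3KO testes, against 25.96 RPKM (CV 0.13) in WT testes. Its log2 ratio was -0.50 ± 0.10 (SE from the CVs), the authors' deposited table gave p = 0.0459 after adjustment, and 4 of its 4 deposited transcripts passed in the same direction. Sycp3, a component of the lateral element along each chromosome, had 24.7 RPKM (CV 0.09) in Dio3KO testes and 17.8 RPKM (CV 0.20) in WT testes, or 0.47 ± 0.15 in log2 (SE from the CVs). For the transcript that stands for Sycp3 the authors' deposited table gave p = 0.0597 after adjustment, but its other 2 transcripts passed there, at 0.0415 and 0.0308, with levels of 23.8 and 22.0 RPKM in Dio3KO against 17.4 and 15.3 RPKM in WT testes. Transcripts of the same gene, those of Syce2 included, share exons and are not separate evidence. Limma also called Sycp3 higher, with an adjusted p of 0.0141. Its limma SE was 0.126, against 0.154 from the CVs, because limma draws variances towards those of genes of like level. In GENCODE M21 (GRCm38, the assembly of mm10), 52.2% of the exonic bases of Sycp3 also lie in exons of Chpt1 on the opposite strand. Chpt1, an enzyme of phosphatidylcholine synthesis, was at 45.3 RPKM in Dio3KO and 41.2 RPKM in WT testes. The use of strand in counting is not stated, so reads from the shared bases of the pair cannot be told apart.

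The other 4 genes of the complex did not pass. Sycp1, the transverse filament, was at 11.1 RPKM (CV 0.09) in Dio3KO and 10.4 RPKM (CV 0.12) in WT testes. Sycp2, the lateral element partner of Sycp3, was at 4.91 RPKM (CV 0.14) in Dio3KO and 4.45 RPKM (CV 0.17) in WT testes. The central element genes Syce1 and Tex12 were at 10.1 RPKM (CV 0.06) and 8.95 RPKM (CV 0.09) in Dio3KO testes and at 10.9 RPKM (CV 0.18) and 9.67 RPKM (CV 0.13) in WT testes. Tex12 binds Syce2 in the central element, and its limma interval ran from -0.31 to 0.10 in log2. The difference between the ratios of Syce2 and Tex12 was not tested.

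Syce2 lies on chromosome 8 (84872111 to 84888221, plus strand) and Sycp3 on chromosome 10 (88459569 to 88473236, plus strand) in the same annotation. Their promoters are shown because Syce2 fell, Sycp3 had the highest ratio of the set, and both hold the E-box CACGTG, which proteins that recruit repressors to germline genes are known to bind. Each run covers 300 bases at the RefSeq start (GRCm38.p6), chr8:84872008-84872307 for Syce2, the downstream one of its 2 listed starts, and chr10:88459337-88459636 for Sycp3. Capitals mark CACGTG and, in Syce2, the E2F-type motif GGCGGGAA, both searched on both strands.
Syce2: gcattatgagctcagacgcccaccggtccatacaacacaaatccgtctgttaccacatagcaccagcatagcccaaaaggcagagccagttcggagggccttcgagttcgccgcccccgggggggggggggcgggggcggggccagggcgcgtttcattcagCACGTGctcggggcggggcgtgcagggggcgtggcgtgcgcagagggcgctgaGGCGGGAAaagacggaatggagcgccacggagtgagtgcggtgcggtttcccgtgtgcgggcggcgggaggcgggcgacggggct
Sycp3: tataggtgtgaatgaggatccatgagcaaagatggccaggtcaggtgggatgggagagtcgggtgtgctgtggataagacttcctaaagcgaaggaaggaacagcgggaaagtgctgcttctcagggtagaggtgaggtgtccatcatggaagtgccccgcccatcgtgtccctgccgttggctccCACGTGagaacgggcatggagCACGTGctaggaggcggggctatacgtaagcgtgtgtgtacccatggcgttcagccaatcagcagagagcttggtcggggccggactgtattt
Sycp3 holds CACGTG at 2 places. Among 27025 genes with a listed promoter, 8.09% hold CACGTG and 2.52% hold GGCGGGAA in at least 1 window of this length. Of the members with a listed promoter, 25.9% hold CACGTG. Those that hold it besides Syce2 and Sycp3 did not pass. Their log2 ratios were 0.11 for Hormad1, 0.09 for Sycp1, 0.003 for Sohlh1, -0.07 for Stag3 and -0.11 for Tex12. A link between this motif and the ratios was not tested.

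Of the meiotic cohesin genes, none passed in the authors' table. Smc1b, the meiotic form of a cohesin core subunit, had 15.3 RPKM (CV 0.06) in Dio3KO and 12.6 RPKM (CV 0.10) in WT testes, and the authors' deposited table gave p = 0.0581 after adjustment. Limma called it higher, with an adjusted p of 0.0131 and a log2 ratio of 0.27. Stag3, the meiotic cohesin subunit of the SA type, was at 16.3 RPKM (CV 0.08) in Dio3KO and 17.2 RPKM (CV 0.17) in WT testes. Rec8, the meiotic kleisin that closes the cohesin ring, was at 2.80 RPKM (CV 0.32) in Dio3KO and 2.26 RPKM (CV 0.27) in WT testes, with a log2 interval from -0.20 to 0.71. Rad21l, another meiotic kleisin, was not listed under that symbol. Its older symbol Gm14160 in RefSeq had 1.94 RPKM (CV 0.07) in Dio3KO and 2.00 RPKM (CV 0.10) in WT testes. A further list held 16 genes for cohesin and mismatch repair in dividing cells, some of which, such as Sgo2a, also act in meiosis. Of these, 10 fell and 0 rose in the authors' deposited table. Limma called 12 lower and 0 higher, also 0 higher at an unadjusted p below 0.05. Over all genes averaging at least 1 RPKM, 15.9% fell and 13.6% rose in that table, and limma called 23.1% lower and 18.1% higher. Rad21, the mitotic kleisin, fell to 71.6 RPKM (CV 0.04) in Dio3KO testes, against 86.9 RPKM (CV 0.01) in WT testes, and Esco2, an acetyltransferase of cohesin, fell to 16.96 RPKM in Dio3KO, against 21.9 RPKM in WT testes. Sgo2a, which guards cohesin at centromeres, fell to 9.51 RPKM in Dio3KO, against 15.3 RPKM in WT testes. Wapl (59.95 and 62.2 RPKM in Dio3KO and WT testes) and Stag2 (44.3 and 41.5 RPKM) did not pass. The log2 median was 0.26 over the 3 meiotic cohesin genes found and -0.23 over these 16 genes, a difference that was not tested. All 20 cell cycle genes fell in the same samples, and their part in the falls among these 16 genes was not tested. With Rad21l under its older symbol the meiotic cohesin median was 0.11.

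In recombination, the falls were those of 3 genes, and both subunits of 1 complex were among them. Psmc3ip and Mnd1 encode the HOP2 and MND1 proteins, which bind each other and help the recombinase Dmc1 to invade the partner chromosome. Psmc3ip fell to 10.1 RPKM (CV 0.07) in Dio3KO testes, against 15.5 RPKM (CV 0.05) in WT testes, and the authors' deposited table gave p = 0.0040 after adjustment. Mnd1 fell to 8.39 RPKM (CV 0.09) in Dio3KO testes, against 12.9 RPKM (CV 0.06) in WT testes, and the authors' deposited table gave p = 0.0054 after adjustment. The log2 ratios were -0.60 ± 0.06 for Psmc3ip and -0.59 ± 0.07 for Mnd1 (SE from the CVs), so that the means of both subunits in Dio3KO testes were 0.650 and 0.653 of those in WT testes. Trip13, an ATPase that strips HORMA-domain proteins from chromosomes and also acts in the spindle checkpoint of dividing cells, fell to 13.4 RPKM (CV 0.05) in Dio3KO testes, against 17.4 RPKM (CV 0.06) in WT testes. The authors' deposited table gave it p = 0.0122 after adjustment, and its log2 ratio was -0.36 ± 0.05 (SE from the CVs). Limma called all 3, with adjusted p of 2.73e-05 for Psmc3ip, 7.74e-05 for Mnd1 and 0.000494 for Trip13. The 3 transcripts of Trip13 and both transcripts of Psmc3ip passed in the authors' deposited table, but transcripts of the same gene share exons and are not separate evidence. All 20 cell cycle genes were lower in the same samples, with a log2 median of -0.71, and the part of this in the falls of Psmc3ip, Mnd1, Trip13 and Syce2 was not tested. In the annotation, 21.2% of the exonic bases of Psmc3ip lie in exons of Mlx on the opposite strand, and Mlx, a transcription factor of glucose sensing, was at 11.7 RPKM in Dio3KO and 11.8 RPKM in WT testes.

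The promoters of these 3 genes are printed because they are the recombination genes that passed the threshold. Psmc3ip lies on chromosome 11 (101091823 to 101095436), Mnd1 on chromosome 3 (84087933 to 84155786) and Trip13 on chromosome 13 (73911347 to 73937784), all on the minus strand in GENCODE M21. The RefSeq windows are chr11:101095386-101095685, chr3:84155737-84156036 and chr13:73937718-73938017 (GRCm38.p6, minus strand). No letter is in capitals, because neither CACGTG nor GGCGGGAA was found in them on either strand.
Psmc3ip: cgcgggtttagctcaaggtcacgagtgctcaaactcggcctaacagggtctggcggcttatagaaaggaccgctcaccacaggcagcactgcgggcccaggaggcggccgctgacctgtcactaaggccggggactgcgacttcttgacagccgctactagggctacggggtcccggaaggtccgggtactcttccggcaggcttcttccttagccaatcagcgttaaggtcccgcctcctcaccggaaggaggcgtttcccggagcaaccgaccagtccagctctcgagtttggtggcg
Mnd1: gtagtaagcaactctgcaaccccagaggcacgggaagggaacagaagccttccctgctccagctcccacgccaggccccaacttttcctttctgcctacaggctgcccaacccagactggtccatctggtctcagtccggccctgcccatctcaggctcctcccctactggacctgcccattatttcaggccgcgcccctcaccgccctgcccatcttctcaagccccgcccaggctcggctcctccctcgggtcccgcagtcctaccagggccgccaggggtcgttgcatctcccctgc
Trip13: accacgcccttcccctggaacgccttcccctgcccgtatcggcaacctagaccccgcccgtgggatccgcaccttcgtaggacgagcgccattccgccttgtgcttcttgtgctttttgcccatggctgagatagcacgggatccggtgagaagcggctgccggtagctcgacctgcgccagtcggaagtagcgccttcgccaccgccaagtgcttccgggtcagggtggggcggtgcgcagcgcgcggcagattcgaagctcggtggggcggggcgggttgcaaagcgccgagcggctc
They held 24, 12 and 34 CpG dinucleotides in the order printed.

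The remaining genes of recombination did not pass. Dmc1, the meiosis-specific recombinase, had 2.05 RPKM (CV 0.03) in Dio3KO and 1.81 RPKM (CV 0.07) in WT testes, with p = 0.0699 after adjustment in the authors' deposited table and a limma interval from -0.03 to 0.32. Spo11, which makes the double-strand breaks, was at 0.54 RPKM (CV 0.33) in Dio3KO and 0.61 RPKM (CV 0.25) in WT testes, the lowest level of the 30 genes. Mei1 and Mei4, needed in mice for break formation, were at 1.52 RPKM (CV 0.18) and 0.77 RPKM (CV 0.14) in Dio3KO testes and at 1.14 RPKM (CV 0.20) and 0.95 RPKM (CV 0.21) in WT testes. Prdm9, the histone methyltransferase that places the breaks, was at 1.76 RPKM (CV 0.10) in Dio3KO and 1.87 RPKM (CV 0.09) in WT testes.

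Hormad1 and Hormad2, proteins of unsynapsed chromosome axes that Trip13 removes, were at 7.73 RPKM (CV 0.09) and 1.62 RPKM (CV 0.18) in Dio3KO testes and at 7.10 RPKM (CV 0.07) and 1.56 RPKM (CV 0.23) in WT testes. Msh4 and Msh5, MutS proteins that pair to stabilise crossover intermediates, were at 7.43 RPKM (CV 0.05) and 1.1 RPKM (CV 0.15) in Dio3KO testes and at 8.28 RPKM (CV 0.14) and 1.46 RPKM (CV 0.22) in WT testes. Msh5 had 7 deposited transcripts, and none passed. Mlh3, a MutL protein of crossover resolution that also has a part in mismatch repair, had the narrowest SE of the set, at 6.86 RPKM (CV 0.04) in Dio3KO and 7.07 RPKM (CV 0.04) in WT testes, and its limma interval ran from -0.17 to 0.09 in log2. Tex11, an X-linked gene of crossover formation, was at 13.9 RPKM (CV 0.09) in Dio3KO and 14.5 RPKM (CV 0.20) in WT testes. Tex15, needed for repair of meiotic breaks and for silencing of transposons, was at 18.5 RPKM (CV 0.08) in Dio3KO and 16.5 RPKM (CV 0.07) in WT testes. Meiob, a single-strand DNA-binding protein, was not listed under that symbol, and its older symbol 4930528F23Rik in RefSeq had 0.86 RPKM (CV 0.31) in Dio3KO and 1.04 RPKM (CV 0.23) in WT testes. Mns1, an intermediate-filament-like protein known from sperm tails and motile cilia, was at 14.9 RPKM (CV 0.08) in Dio3KO and 11.9 RPKM (CV 0.19) in WT testes, and the authors' deposited table gave p = 0.1408 after adjustment. In the annotation 53.0% of its exonic bases lie in exons of Tex9 on the opposite strand, which was at 5.61 RPKM in Dio3KO and 6.81 RPKM in WT testes.

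The spread between samples, as the authors' CV, was wider in the WT group for most of these genes. The CV was lower among Dio3KO than among WT testes for 22 of 30 members, equal for 1 and higher for 7, with medians of 0.09 among Dio3KO and 0.175 among WT testes. Over genes averaging at least 1 RPKM, 59.5% had the lower CV in the Dio3KO group, with medians of 0.06 and 0.08. All 5 regulators of differentiation and all 6 genes of the synaptonemal complex had the lower CV in Dio3KO testes, against 8 of 15 recombination genes. In a list of 18 genes that mark germ cells of all stages, the CV was lower among Dio3KO testes for 17, with medians of 0.09 among Dio3KO and 0.175 among WT testes. In the cell cycle list it was lower among Dio3KO testes for 2 of 20. Psmc3ip, Mnd1 and Trip13 had CVs from 0.05 to 0.09 in Dio3KO testes and from 0.05 to 0.06 in WT testes, below the median of the members in the WT group. A CV computed from 4 samples is itself imprecise, and differences between CVs were not tested.

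**Figure D3:**
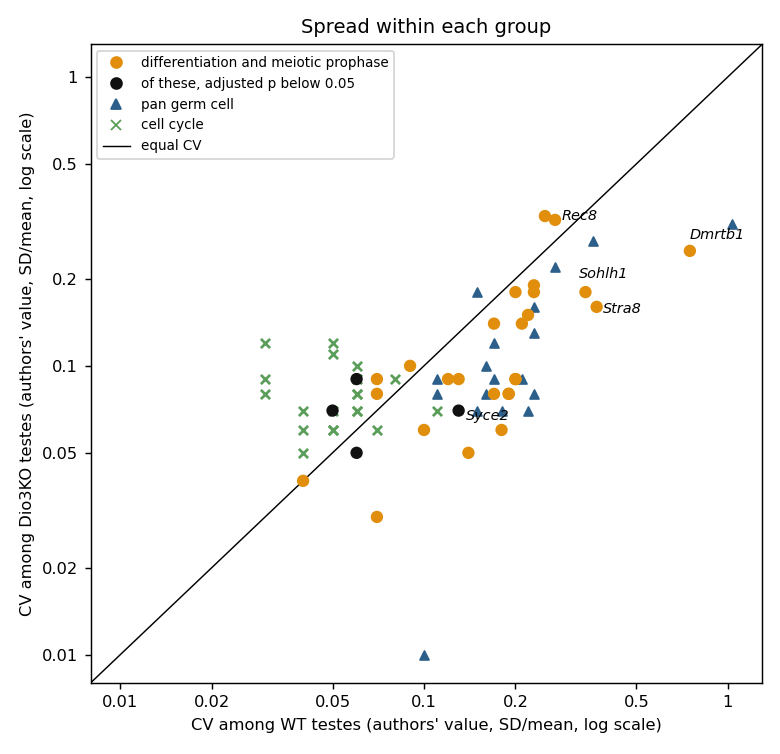
The authors' CV among Dio3KO testes (vertical, log axis) is plotted against that among WT testes (horizontal, log axis) for the 30 genes, for pan germ cell genes and for cell cycle genes, with the line of equal CV. Orange points (members that did not pass) and blue triangles lie mostly below the line, with Stra8 at 0.16 against 0.37, whereas green crosses (cell cycle) lie mostly above it.

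Of 18 pan germ cell genes, 0 rose and 0 fell in the authors' deposited table, and limma called 0 higher and 2 lower, with the same counts at an unadjusted p below 0.05. Their levels summed to 377 RPKM in Dio3KO and 404 RPKM in WT testes, with a log2 median of -0.10, 4 ratios above 0 and 14 below, and no gene listed at 0 RPKM. The most abundant were Dazl, given above, and Mael (57.0 and 69.4 RPKM in Dio3KO and WT testes), which did not pass. Centred on that median, the median of the 30 members was 0.05 and the ratios of Psmc3ip, Mnd1, Trip13 and Syce2 were -0.50, -0.49, -0.27 and -0.40. Undifferentiated spermatogonia were followed by 20 genes, of which 3 were lower (15%) and 0 higher in the authors' deposited table. Over all genes 11.0% were lower there, and 15.9% of those averaging at least 1 RPKM, so the share was close to that of other genes. Limma called 5 of 15 lower and 0 higher, with 6 and 0 at an unadjusted p below 0.05, and it called 23.1% of all genes averaging at least 1 RPKM lower after adjustment. Ret, the receptor that passes on the niche factor GDNF, fell to 6.69 RPKM (CV 0.11) in Dio3KO testes, against 9.43 RPKM (CV 0.09) in WT testes, and the transcription factor genes Bcl6b and Eomes fell to 3.50 and 0.44 RPKM in Dio3KO, against 5.89 and 0.97 RPKM in WT testes. Etv5 (24.3 and 23.2 RPKM in Dio3KO and WT testes) and Gfra1 (11.5 and 15.2 RPKM) did not pass, though limma called Gfra1 lower with an adjusted p of 0.0049. Of the 20 ratios of this list, 15 lay below 0 and 5 above. Their log2 median was -0.28, against -0.05 over all genes averaging at least 1 RPKM, a difference that was not tested.

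Among 15 genes of differentiating spermatogonia, 1 rose and 1 fell in the authors' deposited table, and limma called 1 higher and 2 lower. Their log2 median was -0.03. Dnmt3a, a de novo DNA methyltransferase, rose to 33.6 RPKM in Dio3KO, against 30.8 RPKM in WT testes, a call that limma did not make (adjusted p 0.0576), and Uhrf1, the partner of maintenance methylation in dividing cells, fell to 36.5 RPKM in Dio3KO, against 55.1 RPKM in WT testes. Ccnd2 (45.0 and 58.9 RPKM in Dio3KO and WT testes) and Nanog (14.9 and 14.6 RPKM) did not pass, though limma called Ccnd2 lower with an adjusted p of 0.0137, and reads of Nanog can be shared with its pseudogenes. Kit, the receptor that marks differentiating spermatogonia and is also made by Leydig cells, was at 8.40 RPKM (CV 0.10) in Dio3KO and 6.09 RPKM (CV 0.22) in WT testes, and the authors' deposited table gave p = 0.0873 after adjustment. Limma called Kit higher, with an adjusted p of 0.0228. Kit was named after its value was seen. In the retinoic acid pathway, which acts upstream of Stra8, 4 of 20 genes rose and 2 fell in that table, with a log2 median of 0.04, and limma called 5 higher and 2 lower. The retinal dehydrogenases Aldh1a2 and Aldh1a3 rose to 7.91 and 6.38 RPKM in Dio3KO, against 6.13 and 3.10 RPKM in WT testes. The retinol transporter Stra6 fell to 5.52 RPKM in Dio3KO, against 10.97 RPKM in WT testes, and the receptor Rara to 20.5 RPKM in Dio3KO, against 29.0 RPKM in WT testes. Aldh1a1, the most abundant of these dehydrogenases (575 and 560 RPKM in Dio3KO and WT testes), and Cyp26b1, which degrades retinoic acid (59.6 and 44.9 RPKM), did not pass. Limma called Cyp26b1 higher, with a log2 ratio of 0.40 and an adjusted p of 0.0147.

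Of 27 further genes of meiotic prophase outside the set, 2 rose (7.4%), 5 fell (18.5%) and 20 did not pass in the authors' deposited table. Limma called 3 of 22 higher and 8 lower. Their log2 median was -0.11. Over all genes averaging at least 1 RPKM, 13.6% rose and 15.9% fell in that table, and limma called 18.1% higher and 23.1% lower. Exo1, an exonuclease of repair, fell to 6.20 RPKM in Dio3KO, against 9.32 RPKM in WT testes, and Sun1, which tethers telomeres at the nuclear envelope, to 27.1 RPKM in Dio3KO, against 30.2 RPKM in WT testes. Also lower, and named with its value known, was Brca2 (7.64 and 9.94 RPKM in Dio3KO and WT testes). Cntd1, a gene of crossover maturation, rose to 11.4 RPKM in Dio3KO, against 9.89 RPKM in WT testes, and Six6os1, a further central element gene named after its value was seen, rose to 5.92 RPKM in Dio3KO, against 3.70 RPKM in WT testes. Fkbp6 (62.6 and 61.1 RPKM in Dio3KO and WT testes) and Tex101 (17.8 and 23.8 RPKM) did not pass, though limma called Tex101 lower with an adjusted p of 0.0443. Exo1 and Brca2 are known to serve dividing cells as well.

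**Figure D4:**
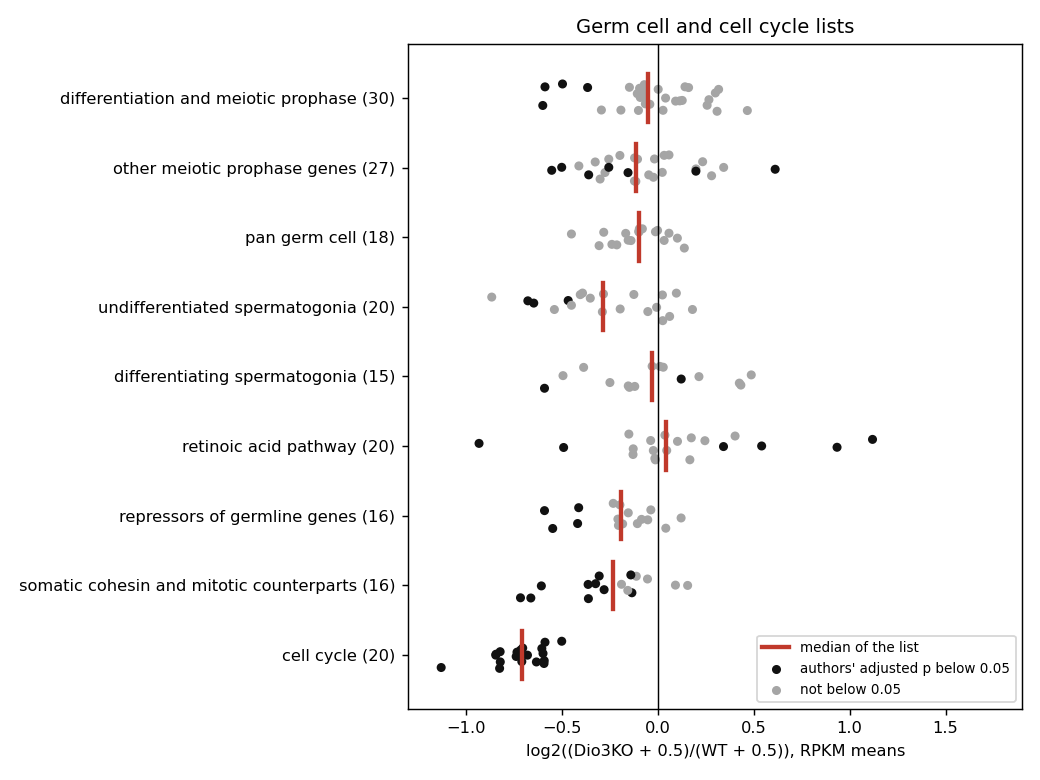
Each dot is a gene placed by its log2 ratio of Dio3KO over WT means (0.5 RPKM added), one row per list with the number of genes found, black where the authors' adjusted p was below 0.05, and the red bar is the list median. The median of the differentiation and meiotic prophase genes lies at -0.05 and that of pan germ cell genes at -0.10, whereas all 20 cell cycle genes lie between -1.13 and -0.50.

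The promoters of these genes were richer in CpG than most. Of the 30 members, 27 matched the RefSeq promoter table, with 32 windows of 300 bases that held a median of 18 CpG dinucleotides, against 7 over 32851 windows of all genes. Rhox13 had the fewest, 5, and Trip13 the most, 34. The E-box CACGTG was in promoters of 7 of the 27, namely Hormad1, Sohlh1, Stag3, Syce2, Sycp1, Sycp3 and Tex12, and GGCGGGAA was in those of Hormad1, Msh5, Prdm9, Syce2 and Tex12. The letters CNCCTCAG, reported for STRA8 binding, were in 7 promoters (25.9% of the members, against 9.12% of all genes). The letters TTTGAA, of the cell cycle homology region, were in 4 promoters (14.8% of the members, against 20.2% of all genes). The first 3 motifs are rich in C and G, as are the windows, and their excess over windows of like composition was not tested. A tandem pair of AGGTCA with a spacer of NNNN, to which thyroid hormone receptors bind, was in none of the 27, and in 0.0148% of all genes, and with a spacer of NNNNN, known for retinoic acid receptors, also in none, against 0.0111%. A single letter change would be missed, so nothing follows from this about the receptors.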

How the data were processed

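RNA sequencing of 4 Dio3KO and 4 WT mouse testis samples was deposited as 1 table of transcripts, each with a group mean in RPKM and a CV, which is a ratio of SD to mean, per the file headers. The table also holds an adjusted p-value deposited by the authors, for which the test is not stated. FastQC, Novoalign 2.08 and mm10 appear, with no role, in the submitters' processing notes. How reads were counted, with which annotation and whether by strand, is not given in the sources used here. Depth, the total count per sample, is unknown, so no counting interval was made.

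Of 147417 lines, 49139 transcripts were left after repeats were dropped, and these gave 24499 genes. Of these, 15556 averaged at least 1 RPKM. Ratios are log2((Dio3KO + 0.5)/(WT + 0.5)) in RPKM, which understates the change of low genes. Their SE comes from the CVs by the delta method with 4 samples a group. A call is an adjusted p below 0.05 in the authors' table. As an alternative, variances from the CVs were moderated with limma 3.58.1 (squeezeVar, R 4.3.3, 6 residual degrees of freedom, CV of at least 0.0025) and p-values were adjusted by Benjamini-Hochberg over all genes. For genes with a wide CV, such as Sycp3, the moderated SE can be narrower than that from their own CVs. The test was checked on simulated data for 15556 genes, with 100 genes changed by 0.5 and 100 by 1.0 in log2. It recovered 71.0% and 93.0% of these, and 1.8% of its calls were unchanged genes. Far fewer genes were changed there than limma called in the real data, so these rates need not hold here. The limma p-values set the difference of the group means against the spread between these samples, a spread that may be technical. Which spread the authors' test used is not stated.

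All members are named. In the lists of germ cell, pathway and cell cycle genes, those named are at most 4 past the threshold, by smallest p, and at most 2 others, by highest level; exceptions are marked, and some genes are not reported here. Members and lists were chosen with earlier results of these data known, and the motifs after the values were seen. The further lists cover other meiotic genes, spermatogonia, germ cells, retinoic acid, germline repressors, spermatids, somatic testis cells, neurons and the cell cycle. Of their genes, 226 were found, 14 of them entries under an older symbol through RefSeq, and 7 were not found. In Sertoli cell genes 4 of 16 rose and 6 fell, in Leydig cell genes 3 of 8 rose and 1 fell, and in peritubular myoid genes 2 of 6 rose and 1 fell. Counts of every list are to be read beside the shares over all genes averaging at least 1 RPKM. These were 13.6% higher and 15.9% lower in the authors' table, and 18.1% higher and 23.1% lower by limma after adjustment. Promoter sequences are from RefSeq (GRCm38.p6) and gene coordinates from GENCODE M21 (GRCm38), matched by symbol. Overlaps of exons are between GENCODE genes, and those between the deposited transcripts may differ.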

Additional observations from a re-analysis of the deposited data

How the results depend on the processing

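The count of members that were higher was 0 by the authors' adjusted p below 0.05. It was 2 with limma over genes averaging at least 1 RPKM and 2 over genes with both means above 0, 3 at an adjusted p below 0.1, and 1 when any transcript of a gene could pass. The count that fell was 4 with limma, at an adjusted p below 0.1 and with any transcript, and 2 at an adjusted p below 0.01. The median log2 ratio of the recombination genes, -0.07, was 0.0095 after scaling to equal sums of RPKM and 0.029 after centring on the pan germ cell median, a setting chosen after seeing the data. Over 180 recomputed ratios of single members, 160 moved by less than 1 SE and 14 differed in sign, none of them of a gene that had passed. Psmc3ip, Mnd1, Trip13 and Syce2 stayed below 0 in every alternative run. The ratios of Psmc3ip, Mnd1 and Trip13 moved by more than 1 SE, to -0.50, -0.49 and -0.27, after scaling to equal sums. They took the same rounded values after centring on the pan germ cell median. Adding the 2 genes listed under an older symbol, also chosen after seeing the data, changed neither count, and the cohesin median became 0.11 in place of 0.26. Leaving out single samples was not run, because the table holds group means. No paired analysis was possible because the columns carry no replicate. Unknown depth limits the genes below 1 RPKM, Spo11 and Mei4, most.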

Other observations

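Among genes known to repress germline genes in other cells, 4 of 16 fell and 0 rose in the authors' deposited table, and limma called 8 lower and 0 higher, with 9 lower and 1 higher at an unadjusted p below 0.05. Over all genes averaging at least 1 RPKM, 15.9% fell and 13.6% rose in that table, and limma called 23.1% lower and 18.1% higher. All 20 cell cycle genes fell in the same samples, and their part in the falls of this list was not tested. E2f6, which binds the E2F-type motif at promoters of meiotic genes, fell to 20.2 RPKM (CV 0.04) in Dio3KO testes, against 29.8 RPKM (CV 0.04) in WT testes, and the authors' deposited table gave p = 0.0042 after adjustment. Dnmt1, the maintenance DNA methyltransferase, fell to 45.3 RPKM in Dio3KO, against 60.7 RPKM in WT testes, and Rybp, a polycomb partner, to 18.0 RPKM in Dio3KO, against 24.1 RPKM in WT testes. Uhrf1, given above, is the fourth. Cbx3 (131 and 154 RPKM in Dio3KO and WT testes) and Hdac2 (88.5 and 90.8 RPKM) did not pass. In log2 the median of the list was -0.19. Of the 5 members whose promoters hold GGCGGGAA, Syce2 fell and the others did not pass, with log2 ratios of -0.29 for Msh5, -0.11 for Tex12, -0.07 for Prdm9 and 0.11 for Hormad1. The motif was chosen after the values were seen, and a link between the level of E2f6 and these ratios was not tested.

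Of the 14 haploid spermatid genes, Hspa1l fell to 3.61 RPKM in Dio3KO, against 4.29 RPKM in WT testes, and Acrv1 rose to 0.06 RPKM in Dio3KO, against 0.02 RPKM in WT testes, a level at which the deposited 2 decimals set the ratio. Odf2 (21.8 and 22.0 RPKM in Dio3KO and WT testes) and Spaca1 (1.47 and 1.53 RPKM) did not pass.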
